A study of Mus musculus with 15 samples.

Results

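Tbr1, Neurod2, Neurod6, Emx1, Bhlhe22, Slc17a7 and Slc30a3 are genes of excitatory neurons of the telencephalon, the part of the brain that holds the cortex and the hippocampus. These 7 genes were selected on their measured counts in the hypothalamus and hippocampus libraries, with the changes by diet already known, so their levels are given as a description and without a test. They carry 8 of the 23589 loci with a gene name, among 23221 gene names in a table of 33603 loci. Bhlhe22 names a locus on each strand, and the plus-strand locus, on the strand of the annotated gene, was used for it.

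Hippocampus, hypothalamus, colon, liver and epididymal fat were taken for RNA-Seq from male C57BL/6 mice on 3 diets. AL mice were fed ad libitum and were 5 months of age, and DR mice were 5 months of age after 1 month of 40% restriction that began at 4 months of age. DR-AL mice had the same month of DR and then 2 months of AL feeding and were 7 months of age, so that diet and age cannot be told apart in this group. Each of the 15 groups gave 1 library, made from a pool of RNA of several mice. The labels name no genetic change or drug in any group, and no difference by diet has a replicate check.

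The telencephalon and the hypothalamus are built from different neurons. T-box, basic helix-loop-helix (bHLH) and homeobox transcription factors set the identity of excitatory neurons in the cortex and hippocampus, and these neurons load their vesicles with glutamate through VGLUT1, the product of Slc17a7. Excitatory neurons of the hypothalamus and thalamus mostly use VGLUT2, the product of Slc17a6, and the hypothalamus has its own set of transcription factors.

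The 7 genes lie on 6 chromosomes (GENCODE M21, GRCm38). Tbr1 spans chr2:61802930-61814114 on the plus strand. Bhlhe22 spans chr3:18054174-18057517 on the plus strand and has 1 annotated exon. Slc30a3 spans chr5:31086106-31108237 on the minus strand. Neurod6 spans chr6:55677822-55681263 on the minus strand, and Emx1 spans chr6:85187438-85204462 on the plus strand. Slc17a7 spans chr7:45163949-45176142 on the plus strand, and Neurod2 spans chr11:98325415-98329648 on the minus strand. The span of Slc17a7 holds a microRNA gene on the same strand, and that of Slc30a3 holds Dnajc5g and a further gene model on the opposite strand. The other 5 genes overlap no annotated gene.

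RefSeq (GRCm38.p6) start sites with the bases before them were at hand for 6 of the 7 genes, with 7 windows because Slc30a3 has 2. In the 250 bases before the start site, 5 of the 7 windows held an E-box (CANNTG on either strand), the letters that bHLH factors bind, against 66.2% of all 32851 windows. CAGATG, an E-box bound by factors of the Neurod family, was in the Neurod2 window and in 14.4% of all windows, and CAGCTG was in no window of the 7 and in 13.0% of all. TAATTA, a homeobox motif, was in the Tbr1 window and in 4.84% of all windows. AGGTGTGA, a T-box motif, was in the window of the second Slc30a3 start and in 1.12% of all windows. Its shorter form GGTGTGA matched the same bases there and 3.33% of all windows. A match is a description of letters and not of binding. The stretches below are shown because 3 of them belong to bHLH genes or to the gene with the highest level, with E-boxes in capitals, and the last holds the T-box motif, in capitals. They run 5′ to 3′ on the strand of the gene and end at the RefSeq start site or before an annotated exon. They lie at chr11:98329649-98329895, chr6:55681264-55681513, chr7:45163671-45163920 and chr5:31093616-31093777. The Slc30a3 stretch lies within the span of its gene. The windows of Tbr1 and Emx1 lie in annotated exons and are not printed.
Neurod2: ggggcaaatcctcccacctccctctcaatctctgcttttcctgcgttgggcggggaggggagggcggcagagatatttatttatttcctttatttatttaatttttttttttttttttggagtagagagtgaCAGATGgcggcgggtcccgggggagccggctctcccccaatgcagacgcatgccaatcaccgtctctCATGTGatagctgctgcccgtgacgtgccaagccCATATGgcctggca
Neurod6: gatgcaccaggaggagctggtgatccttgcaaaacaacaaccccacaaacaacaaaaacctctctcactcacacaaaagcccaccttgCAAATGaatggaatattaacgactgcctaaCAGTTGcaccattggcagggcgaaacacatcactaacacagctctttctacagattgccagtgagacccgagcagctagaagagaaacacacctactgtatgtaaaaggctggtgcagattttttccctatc
Slc17a7: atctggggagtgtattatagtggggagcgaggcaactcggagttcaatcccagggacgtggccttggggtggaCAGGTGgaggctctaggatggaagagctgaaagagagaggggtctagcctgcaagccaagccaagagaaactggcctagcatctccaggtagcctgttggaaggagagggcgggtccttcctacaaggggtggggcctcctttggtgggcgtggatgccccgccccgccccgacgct
Slc30a3: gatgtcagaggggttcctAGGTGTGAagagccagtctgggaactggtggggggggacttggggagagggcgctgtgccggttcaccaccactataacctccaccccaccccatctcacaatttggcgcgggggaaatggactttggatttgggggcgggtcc

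Counts on named loci ranged from 25159857 to 40500130 in the 6 brain libraries and from 21767088 to 33422262 in the 9 others. CPM are counts scaled to a common library total on named loci. Intervals of ratios are exact 95% Clopper-Pearson intervals that cover counting error only. On the values used to choose them, all 7 genes were higher in each of the 3 hippocampus libraries than in each of the 3 hypothalamus libraries. As a check of the region labels by other genes, the 13 loci of hypothalamic transcription factors were all lower in the hippocampus (quasi-likelihood test of edgeR, adjusted p under 0.05, where 33.4% of 15742 loci were higher and 34.6% lower). The table's own positions are of another genome build than GRCm38, since only 13.6% of 20700 matched symbols overlap their annotated place, so none of them is printed.

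**Figure D1:**
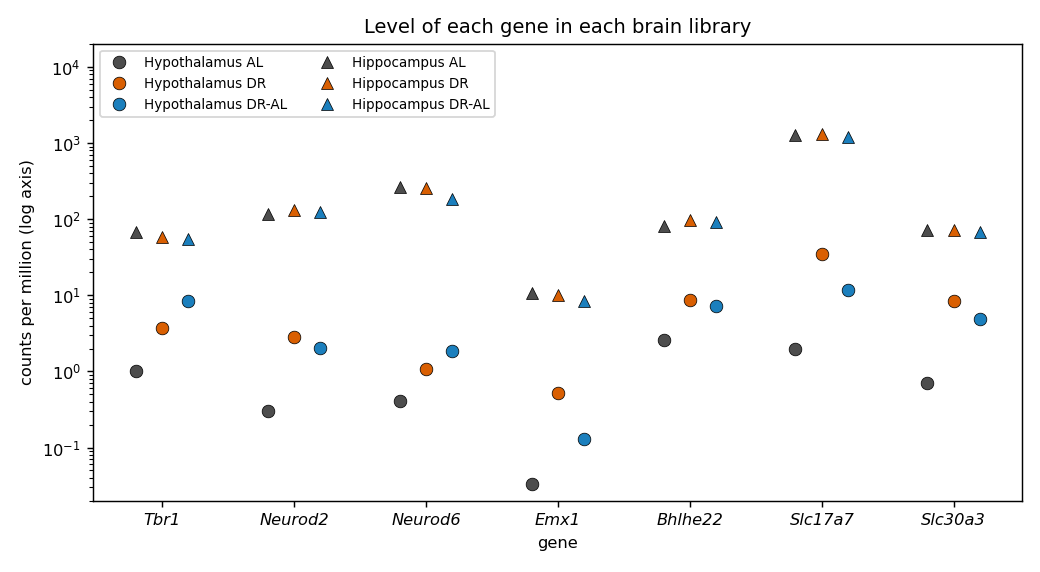
Level of each gene in CPM (log axis) in the 3 hypothalamus libraries (circles) and the 3 hippocampus libraries (triangles), coloured by diet, 1 point per library. All triangles of a gene lie above its circles, and in the hypothalamus the AL library is the lowest for each gene.

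The 7 genes were rare in the hypothalamus of AL mice. All but Emx1, with too few counts for DR-AL, were more abundant in the hypothalamus of both DR and DR-AL mice, while in the hippocampus the 7 genes differed by less than a fold of 2 between diets. Loci averaging 10 counts or more in the hypothalamus libraries were considered, which held 6 of the 7 genes, and 6 were higher by a fold of at least 2 in DR than in AL, where 1.56% of 15799 loci were, and 6 were higher in DR-AL than in AL, where 1.58% were. These shares are the background of a contrast on which the genes were chosen, and nothing is read from the difference. Emx1 did not reach the mean of 10 counts. Both comparisons share the AL library. In bulk RNA, more cells of a type and more RNA per cell cannot be told apart.

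Tbr1, a T-box factor of deep cortical and other early-born excitatory neurons, had 30, 121 and 261 counts in the 3 hypothalamus libraries, given in the order AL, DR and DR-AL here and from here on. It had 2720, 1850 and 1381 counts in the AL, DR and DR-AL hippocampus. The AL hypothalamus was the lowest and DR-AL the highest of the 3, and all stayed below every hippocampus library in CPM. DR gave a fold over AL of 3.61 (interval 2.43 to 5.65) and DR-AL one of 8.16 (5.66 to 12.5), with counts scaled to the library total and a pseudocount of 0.5. In the hippocampus the folds were 0.882 (0.831 to 0.936) for DR and 0.817 (0.765 to 0.872) for DR-AL.

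Neurod2, a bHLH factor of postmitotic excitatory neurons, had 9, 94 and 63 counts in the AL, DR and DR-AL hypothalamus. Its hippocampus libraries had 4767, 4139 and 3147 counts. The AL hypothalamus was the lowest of the 3 and stood apart from the other two. Its folds over AL were 9.05 (4.78 to 21.3) for DR and 6.38 (3.29 to 15.2) for DR-AL in the hypothalamus, and 1.13 (1.08 to 1.17) and 1.06 (1.02 to 1.11) in the hippocampus.

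Neurod6, a bHLH factor closely related to Neurod2, had 12, 35 and 58 counts in the hypothalamus and 10564, 7941 and 4686 in the hippocampus, again for AL, DR and DR-AL. It was second only to Slc17a7 among the 7 genes in the hippocampus counts, but its counts in the hypothalamus stayed below 100 on every diet. Its folds over AL in the hypothalamus were 2.58 (1.34 to 5.59) and 4.46 (2.44 to 9.40). In the hippocampus its folds were 0.975 (0.947 to 1.00) for DR and 0.714 (0.690 to 0.739) for DR-AL, the lowest of the 7 genes.

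Emx1, a homeobox factor of the dorsal telencephalon, was close to the limit of detection in the hypothalamus. The AL, DR and DR-AL libraries held 1, 17 and 4 counts, against 437, 318 and 213 counts in the hippocampus. The ratio to AL had an interval from 2.41 to 644 for DR and one from 0.376 to 187 for DR-AL. A difference between AL and DR-AL was therefore not detectable at this depth.

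Bhlhe22, a bHLH factor of cortical and hippocampal neurons that some spinal and retinal neurons also express, was the highest of the 7 genes by count in the AL hypothalamus. It had 77, 283 and 229 counts in the hypothalamus and 3337, 3051 and 2299 in the hippocampus. Its folds over AL were 3.32 (2.58 to 4.34) and 2.82 (2.18 to 3.71) in the hypothalamus. On the log2 scale its ratios in the hippocampus were 0.25 (0.17 to 0.32) and 0.15 (0.07 to 0.23). The minus-strand locus of the same name had 54, 78 and 96 counts in the hypothalamus and 568, 430 and 338 in the hippocampus. Its folds over AL in the hypothalamus were 1.31 (0.913 to 1.89) for DR and 1.68 (1.20 to 2.41) for DR-AL, below a fold of 2 in both.

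Slc17a7 encodes VGLUT1, which fills synaptic vesicles with glutamate. Its counts in the AL, DR and DR-AL hypothalamus were 58, 1147 and 368, and in the hippocampus 52182, 40977 and 30201. The DR library was the highest of the 3 hypothalamus libraries and the AL library the lowest. The fold over AL reached 17.8 (13.8 to 23.8) for DR and 5.99 (4.56 to 8.10) for DR-AL, and in the hippocampus 1.02 (1.01 to 1.03) and 0.932 (0.919 to 0.945).

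Slc30a3 encodes ZnT3, which loads zinc into vesicles of a subset of glutamate neurons. It had 21, 277 and 152 counts in the hypothalamus and 2927, 2226 and 1732 in the hippocampus. The order of the diets in the hypothalamus was that of Slc17a7. The folds over AL were 11.7 (7.67 to 19.6) and 6.75 (4.35 to 11.4) in the hypothalamus, and 0.986 (0.933 to 1.04) and 0.953 (0.897 to 1.01) in the hippocampus.

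**Figure D2:**
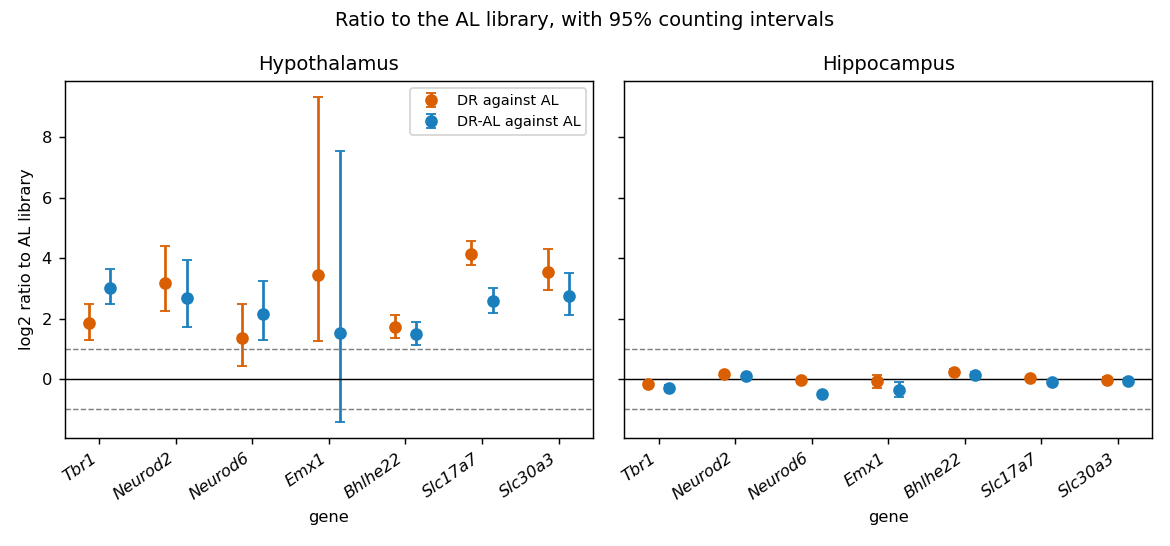
Log2 ratio of the DR and DR-AL libraries to the AL library for each gene in hypothalamus (left) and hippocampus (right), with 95% counting intervals and dashed lines at a fold of 2. In the hypothalamus all points lie above the upper dashed line, with an interval for Emx1 in DR-AL that reaches below 0, and in the hippocampus all points lie between the dashed lines.

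In the hippocampus, 0 of the 7 genes passed a fold of 2 in either direction. In DR, 0.302% of 15220 loci were higher and 0.736% lower by that fold, and in DR-AL 0.828% were higher and 0.769% lower. The log2 ratios of the 7 genes lay between −0.18 and 0.25 for DR and, for DR-AL, between −0.49 and 0.15. The coefficient of variation over the 3 hippocampus libraries ran from 2.50% for Slc30a3 to 17.7% for Neurod6, where the median of all loci was 6.37%. Over the 3 hypothalamus libraries it ran from 51.4% for Bhlhe22 to 113% for Emx1, where the median was 7.19%. Striatal projection neuron genes moved in the DR-AL hippocampus library, where all of the 7 genes but Neurod2 and Bhlhe22 had their lowest hippocampus CPM. These striatal genes were higher than in AL by a fold of at least 2 at 7 of 11 loci. Their summed level was 232, 224 and 471 CPM in AL, DR and DR-AL, and their part in the values of the 7 genes was not tested.

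The DR and DR-AL hypothalamus libraries differed from each other, and not in 1 direction. Without the AL library, DR-AL against DR gave a fold of 2.26 (1.82 to 2.83) for Tbr1 and 1.73 (1.12 to 2.73) for Neurod6. Slc17a7 was lower in DR-AL, at 0.337 (0.299 to 0.379) of its DR level, and so were Slc30a3 at 0.577 (0.469 to 0.704) and Neurod2 at 0.705 (0.503 to 0.978). Emx1 gave 0.269 (0.0604 to 0.757) from 4 and 17 counts. Bhlhe22 gave 0.849 with an interval from 0.710 to 1.01, which includes no change. Among the 6 genes with enough counts, 1 was higher and 1 lower by a fold of at least 2, where 0.791% of loci were higher and 2.42% lower.

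The level in the hypothalamus was set against the mean of the 3 hippocampus libraries for each gene. In AL the 7 genes stood between 0.154% (Slc17a7) and 2.87% (Bhlhe22) of the hippocampus level, with a median of 0.343% that rests on the single Emx1 count. In DR they stood between 0.457% (Neurod6) and 11.9% (Slc30a3), with a median of 5.29% that is the value of Emx1, from 17 counts. In DR-AL they stood between 0.795% (Neurod6) and 13.8% (Tbr1), with a median of 1.61%.

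The percentages were unequal within each library. In DR, Slc30a3 reached 11.9% (10.6 to 13.4), Bhlhe22 9.55% (8.47 to 10.7) and Tbr1 6.11% (5.07 to 7.31) of the hippocampus level, and Emx1 5.29% (3.08 to 8.47). Slc17a7 reached 2.76% (2.61 to 2.93), Neurod2 2.29% (1.85 to 2.81) and Neurod6 0.457% (0.318 to 0.636) in the same library. The highest gene was 26.1 times the lowest in DR, 17.4 times in DR-AL and 18.6 times in AL.

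The order of the genes also differed between the libraries. In DR-AL, Tbr1 led with 13.8% (12.2 to 15.6), followed by Bhlhe22 with 8.11% (7.09 to 9.23) and Slc30a3 with 6.88% (5.83 to 8.06). Neurod2 stood at 1.61% (1.24 to 2.06), Emx1 at 1.31% (0.356 to 3.34), Slc17a7 at 0.931% (0.838 to 1.03) and Neurod6 at 0.795% (0.604 to 1.03). Tbr1, Bhlhe22 and Slc30a3 held the 3 highest places on each diet, and the intervals of Slc17a7 and Neurod6 overlapped in DR-AL but not in DR. Above the AL level, the gain ran from 0.284 points (Neurod6) to 10.9 points (Slc30a3) for DR and, for DR-AL, from 0.622 points (Neurod6) to 12.2 points (Tbr1). From the deposited FPKM values the percentages were lower, with 7.25% in place of 11.9% for Slc30a3 in DR and medians of 0.179%, 2.79% and 1.22% in AL, DR and DR-AL.

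**Figure D3:**
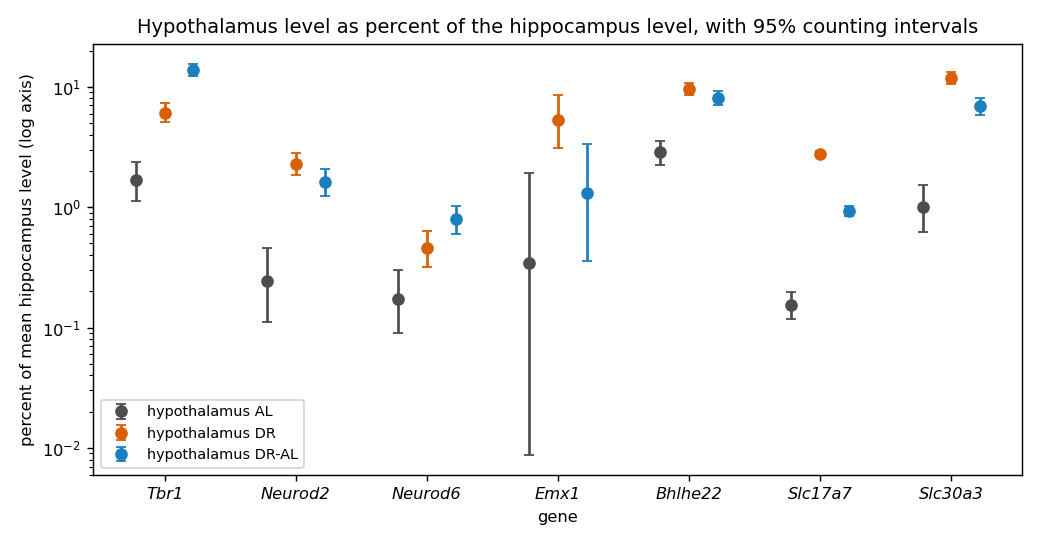
Hypothalamus level of each gene as percent of the mean of its 3 hippocampus libraries (log axis), by diet, with 95% counting intervals of the hypothalamus count. In AL the genes lie between 0.154% and 2.87%, and in DR and DR-AL they spread from 0.457% to 13.8% without a common value.

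Between the regions, the geometric mean of the hippocampus to hypothalamus ratio over the 3 diets was 244 for Neurod6 and 136 for Slc17a7. It was 101 for Neurod2, 62.6 for Emx1, 22.8 for Slc30a3, 19.0 for Tbr1 and 16.4 for Bhlhe22. The ratio differed by diet, with the highest value in AL for each gene. That of Slc17a7 in AL, DR and DR-AL was 654 (510 to 868), 37.4 (35.3 to 39.8) and 102 (91.8 to 113), and that of Tbr1 was 65.4 (46.4 to 98.7), 16.0 (13.3 to 19.4) and 6.55 (5.75 to 7.52). Without the AL libraries the geometric means fell to 61.7 for Slc17a7, 53.1 for Neurod2, 153 for Neurod6, 33.5 for Emx1, 10.9 for Slc30a3 and 10.2 for Tbr1, and to 11.8 for Bhlhe22. Without the DR libraries they were 258 for Slc17a7, 113 for Emx1 and 37.5 for Slc30a3, and without the DR-AL libraries 32.3 for Tbr1 and 382 for Neurod6.

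By this ratio Neurod6 ranked 4, Slc17a7 7, Neurod2 9, Emx1 15, Slc30a3 52, Tbr1 66 and Bhlhe22 77 of 15703 loci. All 3 hippocampus libraries lay above all hypothalamus libraries with a mean ratio past 2 for 7.09% of these loci, or 28.5% of the loci called in either direction. With size factors, which shift the median log2 ratio of all loci from −0.24 to 0.00, 42.2% of the called loci were higher in the hippocampus, and from FPKM 63.3%. The 7 genes were higher under each of these scalings.

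Levels can be compared between genes only per length, for which FPKM values were used. In the hippocampus the mean over the 3 libraries was 390 FPKM for Slc17a7 and 86.0 for Neurod6, with ranges of 363 to 416 and 72.8 to 96.3. It was 35.2 ± 2.03 for Slc30a3, 34.8 ± 3.47 for Neurod2 and 28.7 ± 3.54 for Bhlhe22 (SD, n = 3 libraries, 1 per diet). Tbr1 had 15.7 ± 1.12 and Emx1, the lowest, had 9.11 and at least 7.68 in each library. Slc30a3, Neurod2 and Bhlhe22 were not separated from their neighbours, since their ranges of 33.2 to 37.2, 31.6 to 38.5 and 24.8 to 31.8 overlap in that order. In the hypothalamus the mean FPKM was 3.14 for Slc17a7, 1.43 for Slc30a3, 1.35 for Bhlhe22, 0.822 for Tbr1, 0.306 for Neurod2, 0.298 for Neurod6 and 0.127 for Emx1. There the range of each gene overlapped that of its neighbour. Slc17a7, for example, ran from 0.369 to 6.69 FPKM and Slc30a3 from 0.207 to 2.55. Neurod6 was thus second in the hippocampus and sixth in the hypothalamus.

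Profiles over the 6 brain libraries were compared as log2 scaled counts set to their hippocampus mean, with the root mean square difference as the measure. Among the 7 genes, Neurod2 and Slc17a7 were most alike (0.46), followed by Tbr1 and Bhlhe22 (0.53), and Neurod6 and Bhlhe22 were farthest apart (2.77). The 4 loci nearest to the median profile of the 7 genes, of 12737 loci that averaged 100 counts or more, were a locus shared by 1700027F09Rik and C030018K13Rik (0.53), Rtn4rl2 (0.65), Krt2 (0.69) and Mas1 (0.77). The median difference over all these loci was 4.44. Rtn4rl2, a receptor related to the Nogo receptor, had 3, 66 and 18 counts in the AL, DR and DR-AL hypothalamus and 2024, 1943 and 1499 in the hippocampus. Mas1, a receptor for angiotensin-(1-7), had 1, 56 and 21 counts in the hypothalamus and 1354, 1141 and 889 in the hippocampus. The likeness is a description over 6 libraries.

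Relatives of the 7 genes with 50 or more counts in each hypothalamus library differed by less than a fold of 2 between AL and the other diets. Slc17a6 (VGLUT2) had 8908, 9583 and 9330 counts in the AL, DR and DR-AL hypothalamus and 1612, 950 and 733 in the hippocampus. Its log2 ratio to AL was −0.04 in DR and, for DR-AL, −0.01, in the same libraries in which Slc17a7 gave 4.15 and 2.58. Slc17a8 (VGLUT3) had 85, 99 and 130 counts in the hypothalamus. Of 9 loci of other Slc30 zinc transporters with enough counts, 0 passed a fold of 2 in either comparison, with log2 ratios from −0.15 to 0.46 in DR. Neurod1 had 84, 140 and 114 counts in the hypothalamus, a log2 ratio of 0.59 in DR and 0.37 in DR-AL. Of 4 related bHLH loci with enough counts, Neurog2 was higher in DR-AL (8, 13 and 40 counts) and Neurod4 lower on both diets (22, 8 and 9 counts). By a fold of 2, 1.58% of all loci were higher in DR-AL, and 0.696% were lower in DR and 2.77% in DR-AL. Of 3 reported Tbr1 targets, Auts2 gave 0.60 and 0.76, Reln 0.49 and 0.56, and Grin2b 0.00 and −0.02, with none past a fold of 2.

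Other genes enriched in forebrain excitatory neurons were not higher with the 7 genes in the hypothalamus. Of 17 loci of 16 such genes, 0 were higher by a fold of at least 2 in DR or in DR-AL, with a median log2 ratio of 0.11 in DR and −0.31 in DR-AL, where the medians of all loci were 0.01 and −0.03. The largest ratios in DR were those of Ddn (0.63), which encodes a postsynaptic protein, and Neurod1 (0.59), and the transcription factor Fezf2 had −0.47. In the hippocampus 16 of the 17 loci were higher than in the hypothalamus by the quasi-likelihood test of edgeR, and the exception was a plus-strand locus of Nrgn, whose coding locus is on the minus strand. Ddn, with a log2 ratio of 5.03 between the regions (adjusted p = 7.4e-06, edgeR), had 3.36%, 5.19% and 2.61% of its hippocampus level in the AL, DR and DR-AL hypothalamus. The summed level of the 17 loci was 1588, 1699 and 1347 CPM in the hypothalamus, against 7.01, 60.3 and 36.4 CPM for the 7 genes.

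**Figure D4:**
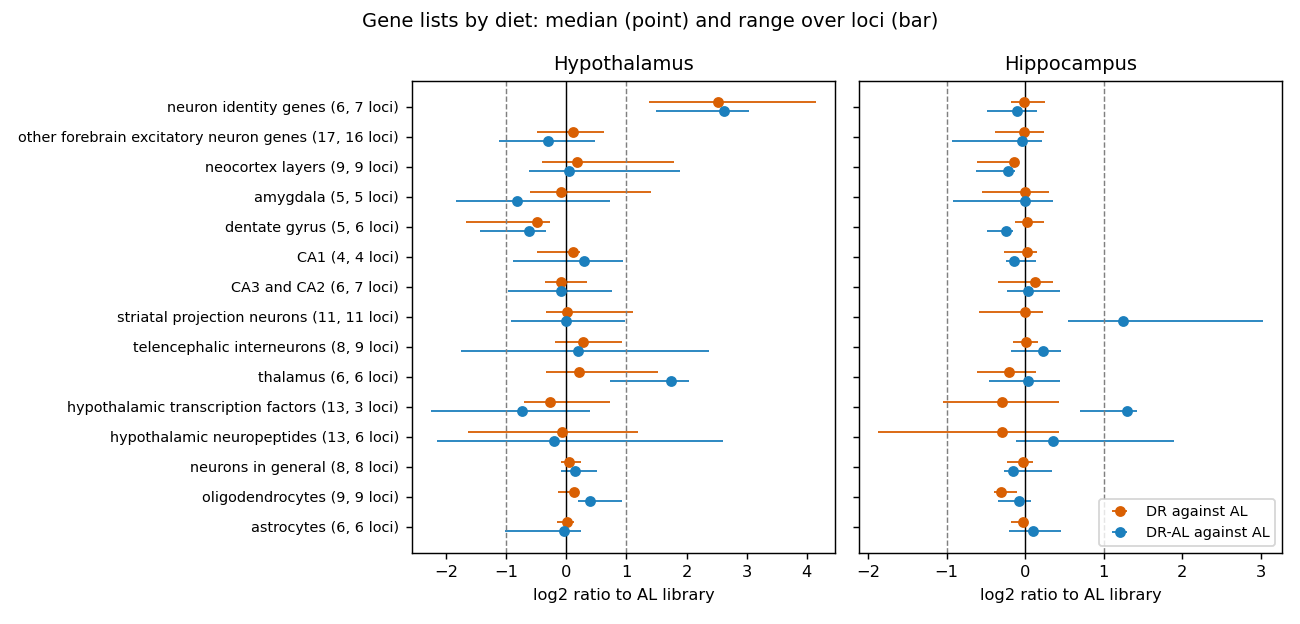
Log2 ratio to the AL library over gene lists in hypothalamus (left) and hippocampus (right), with the median as a point, the lowest to highest locus as a bar, and the number of loci with enough counts in each region in parentheses. The neuron identity genes lie right of the dashed line at a fold of 2 in the hypothalamus, and the other forebrain excitatory genes lie around 0.

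Markers of neighbouring regions were examined in the same libraries. Dentate gyrus genes were not higher in the hypothalamus of DR or DR-AL mice. Of 5 loci with enough counts 0 were higher by a fold of 2, with a median log2 ratio of −0.48 in DR and −0.62 in DR-AL. Tdo2 (24, 8 and 9 counts) was lower by that fold on both diets and Dsp (80, 63 and 31 counts) in DR-AL, where 0.696% of all loci were lower in DR and 2.77% in DR-AL. Lct, chosen after its values were seen, had 2 counts in each hypothalamus library and 1505, 1375 and 772 in the hippocampus. Their summed level was 85.3, 66.5 and 61.1 CPM in the AL, DR and DR-AL hypothalamus. CA1 genes (4 loci) and CA3 and CA2 genes (6 loci) had 0 past the fold in either comparison.

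Of 9 neocortex layer genes, 2 were higher in DR and 1 in DR-AL, where 1.56% and 1.58% of all loci were. Ctgf, a gene of deep cortical cells also made outside the brain, had 249, 882 and 225 counts, and Cplx3, chosen after its values were seen, had 13, 51 and 52. The summed level of the 9 loci was 253, 281 and 265 CPM. The amygdala list had 1 of 5 loci higher in DR, Cyp26b1 (136, 398 and 81 counts), and 1 lower in DR-AL, a plus-strand locus of Lmo3 (25, 18 and 7 counts). Its summed level was 132, 126 and 105 CPM. No locus of these lists was at 0 in the hypothalamus, and their part in the values of the 7 genes was not tested.

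Other lists differed between the hypothalamus libraries. Thalamus genes were higher than in AL at 5 of 6 loci in DR-AL, against 1.58% of all loci, and at 1 of 6 in DR, against 1.56%, with a summed level of 84.8, 124 and 245 CPM. Zic1 had 640, 2025 and 2696 counts and Tcf7l2 770, 675 and 1865. Hypothalamic transcription factors were lower at 5 of 13 loci in DR-AL, against 2.77% of all loci, and at 0 in DR, against 0.696%, with a summed level of 397, 319 and 214 CPM. Nr5a1, which marks the ventromedial nucleus, had 1297, 878 and 368 counts, and Foxb1, a gene of the mammillary region, had 456, 832 and 571. Of the interneuron genes, Lhx6 had 100, 207 and 545 counts in the hypothalamus, and of 8 loci it was the 1 higher in DR-AL (1.58% of all loci) and Npy (2527, 2458 and 790 counts) the 1 lower (2.77%). Anterior pituitary genes were higher in DR at 3 of 5 loci (1.56% of all) and lower in DR-AL at 4 of 5 (2.77%), with a summed level of 15.9, 24.6 and 3.97 CPM and 1 of 6 loci at 0 in AL and in DR-AL. Gh, the growth hormone gene, had 88, 224 and 18 counts and Cga, the shared subunit of the glycoprotein hormones, 253, 361 and 27. Neurons in general (8 loci) had 0 past the fold, with 5014, 5198 and 5720 CPM in sum. The part of these genes in the values of the 7 genes was not tested.

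Colon epithelium genes were highest in the AL hypothalamus library. Their summed level was 21.3 CPM in it, against 3.57 in DR and 3.08 in DR-AL, and 5 of 6 loci with enough counts were lower than in AL in both other libraries, where 0.696% (DR) and 2.77% (DR-AL) of all loci were. In the hippocampus their sum was 3.95, 6.50 and 3.34 CPM. None of the 8 loci was at 0 in AL and 1 was at 0 in each of the other two hypothalamus libraries. Red blood cell genes were highest in AL in both regions, with 114, 57.2 and 37.0 CPM in the hypothalamus. The AL hippocampus had 60.9 CPM and that of DR 30.3, with a median log2 ratio of −0.98 in both other hippocampus libraries. The part of both lists in the low AL values of the 7 genes was not tested.

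Outside the brain the 7 genes were near the limit of detection in most libraries. Tbr1, Neurod2, Neurod6 and Emx1 had between 0 and 10 counts in each of the 9 libraries of liver, fat and colon, and the limit that 0 counts allow is 3 counts, or 0.0898 to 0.138 CPM by library. In the colon Slc17a7 had 25, 3 and 1 counts and Neurod6 9, 3 and 2 in AL, DR and DR-AL. Neurons in general had a summed level of 15.1, 15.4 and 9.66 CPM in the same colon libraries. Slc30a3 had 13, 19 and 18 counts in the liver.

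Fat was the exception for Slc30a3. The AL, DR and DR-AL fat libraries held 35, 246 and 1047 counts of it, or 1.33, 10.8 and 38.3 CPM, so that the DR-AL fat library exceeded each hypothalamus library in CPM. The interval of the fold over AL was 5.65 to 11.9 for DR and, for DR-AL, 20.5 to 41.4. Slc17a7 had 16, 50 and 194 counts and Bhlhe22 19, 29 and 45 in the same libraries. A list of 7 sperm genes on 8 loci, chosen after seeing the data, had 4.00, 497 and 2478 CPM in the AL, DR and DR-AL fat libraries, with no locus at 0. Prm2, which packs sperm DNA, had 43, 3914 and 21083 counts. Neurons in general had 28.7, 73.9 and 58.4 CPM in the same fat libraries. The part of the sperm genes and of the neuron genes in the fat values of Slc30a3 and Slc17a7 was not tested. Dnajc5g, which overlaps Slc30a3 on the opposite strand, had 0, 79 and 553 counts in the AL, DR and DR-AL fat libraries and 0 in each of the 6 brain libraries. By FPKM the log2 ratio of Slc30a3 to AL was 1.98 in DR and 2.95 in DR-AL, against 2.99 and 4.82 from counts.

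**Figure D5:**
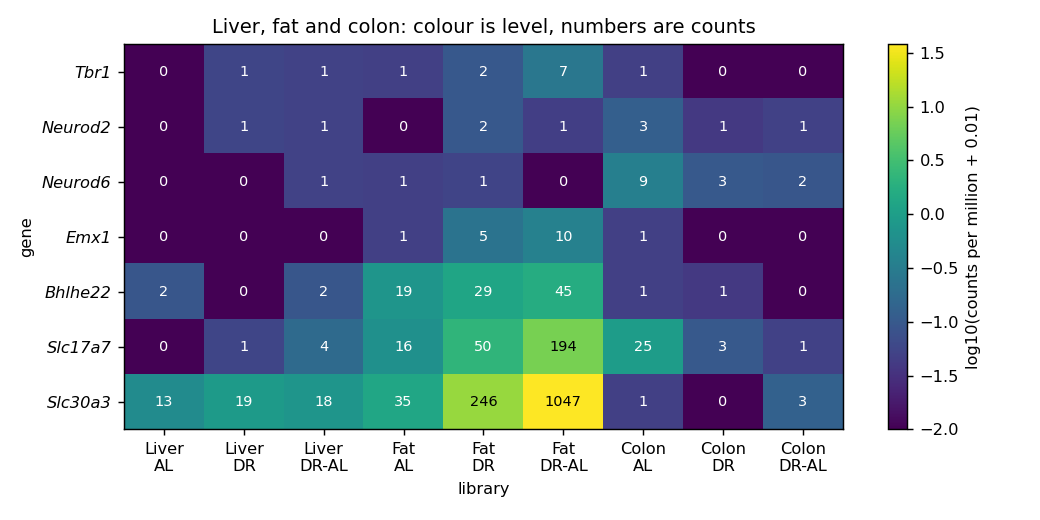
Counts (numbers) and level as log10 of CPM plus 0.01 (colour) of each gene in the 9 libraries of liver, fat and colon. Slc30a3 in fat stands out with 35, 246 and 1047 counts in AL, DR and DR-AL, and most other cells hold 10 counts or fewer.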

How the data were processed

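The authors pooled RNA of the mice of each group, removed ribosomal RNA, kept the strand, and sequenced 1 library per tissue and diet. Their methods state trimming, alignment to mm10 and removal of duplicate reads, and the labels name mm9 and DESeq2. The authors deposited 1 table with raw counts per locus, which were used here, and FPKM values, whose scaling between libraries is not given in the sources used here. No column was of another series (0 left out).

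Counts were scaled to the total on named loci, and loci without a name, 0.258% to 1.39% of the counts, were left out. Log2 ratios used a pseudocount of 0.5. A locus was called at a mean of at least 10 counts and a fold of 2. The region comparison of other genes used edgeR 4.0.16 (quasi-likelihood, TMM, filterByExpr, diet as a term, Benjamini-Hochberg adjusted p under 0.05) in R 4.3.3. On simulated data it recovered 100 of 100 loci changed by a fold of 2 and 100 of 100 by a fold of 4, with 8 false calls among 15722 loci. The changed loci were all higher in the hippocampus and above a minimum mean count, and no effect of diet was simulated. Recovery at low counts, or with as many differing loci as in the data, was not examined. Libraries of 1 region differ in diet, and those of 1 diet come from the same group of mice. With diet as a term, p-values measure how far the region difference varied over the 3 diets, with information shared between loci. They do not measure the spread between mice. Python 3.11.15, numpy 2.4.6, pandas 2.3.3, scipy 1.17.1 and matplotlib 3.10.9 were also used.

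The 7 genes and the gene lists were chosen with earlier results of these data known. Named are the 7 genes, their relatives, the 5 loci most like them, and, of a list a result turns on, the 2 genes with the largest and the 2 with the smallest log2 ratio of DR to AL in the hypothalamus among those with a mean of at least 50 counts. Some loci under this rule are not reported here. Grin2b, Reln, Auts2, Cyp26b1, Lct, Tdo2, Lmo3, Cplx3, Prm2 and Dnajc5g were chosen after their values were seen. Alternatives were DESeq size factors, TMM factors, a pseudocount of 5, FPKM with a pseudocount of 0.1, no filter, a fold of 1.5, the Z test of the methods with a fold of 1.25, DESeq2 1.42.0, no diet term and libraries or genes left out.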

Additional observations from a re-analysis of the deposited data

Results flagged for a closer look

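In DR-AL, Tbr1, Neurod6 and Slc17a7 had log2 ratios to AL above 0 in the hypothalamus and below 0 in the hippocampus, with both counting intervals away from 0, and in DR Tbr1 alone of the 7 genes did. The hippocampus ratio of Slc17a7 in DR-AL was −0.10, and 25.4% of loci lay below it. The log2 ratio to AL in the hypothalamus exceeded that in the hippocampus by 2.03 in DR and 3.32 in DR-AL for Tbr1. The difference in DR-AL was 2.65 for Neurod6 and 2.68 for Slc17a7. With 1 library per group, these differences were not tested.

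Signals above the AL library of the same tissue appeared outside the brain comparisons. In fat the log2 ratio to AL was 2.99 in DR and 4.82 in DR-AL for Slc30a3, and 1.81 and 3.50 for Slc17a7. In the DR-AL fat library it was 1.16 for Bhlhe22 and 2.74 for Emx1, the latter from 10 counts and 1 count. The minus-strand locus of Bhlhe22 in the hypothalamus had a log2 ratio of 0.75 in DR-AL.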

How the results depend on the processing

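Of 121 alternative values of the counts and medians that answer a comparison, 112 were labelled as close to the reported ones. They include counts of the 7 genes, chosen on these contrasts, and of lists chosen with results known. For such counts closeness says little, and a count of 0 that stayed 0 was labelled close. A count was close within a factor of 1.5 of the reported one, and a median percent inside the counting interval of its middle gene. In AL that gene was Emx1, with 1 count and an interval of 0.00869% to 1.91%. All AL medians fell inside it, so closeness there says little. In DR the middle gene was Emx1 again, with 17 counts and an interval of 3.08% to 8.47%, which is wide as well. With the Z test, 2 of the 7 genes were lower in the DR-AL hippocampus, where the fold of 2 gave 0. By the same rule 2.31% of 15220 loci were lower. Without the AL hypothalamus library, an alternative added after seeing the data, DR-AL against DR gave 1 gene higher and 1 lower. Of all loci, 0.791% were higher and 2.42% lower. From FPKM the median percent of the hippocampus level was 2.79 in DR and 1.22 in DR-AL. Leaving out 1 gene at a time, the median ranged over 0.292 to 0.671 (AL), 4.03 to 5.70 (DR) and 1.46 to 4.25 (DR-AL). From FPKM 5 of the 6 genes tested passed the fold in the DR hypothalamus, since Neurod6 gave a log2 ratio of 0.85. Of 15799 loci, 0.696% were higher by that fold from FPKM. Bhlhe22 in DR-AL fat reversed to −0.29 from FPKM, and the cause was not tested. FPKM moved the median log2 ratio of all hippocampus loci to 0.11 in DR and 0.13 in DR-AL.

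Over the same alternatives, hypothalamus loci higher numbered 110 to 1178 in DR (246 reported) and, in DR-AL, 169 to 1084 (249), and lower 60 to 1001 (110) and 206 to 1574 (437). Hippocampus loci higher numbered 19 to 707 (46) and 73 to 892 (126), and lower 26 to 1207 (112) and 30 to 1220 (117). By region, edgeR and DESeq2 gave 4142 to 5319 loci higher and 4298 to 5542 lower. The comparison of regions paired the libraries by diet, and without that pairing 5266 loci were higher and 5445 lower, against 5262 and 5440 with it. Between diets no paired analysis was possible because each group has 1 library. Counting error bounds genes under about 50 counts, and pooling leaves the spread between mice unknown.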
